A study of Homo sapiens with 12 samples.

Results

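The factors described here cut nascent pre-mRNA and add its poly(A) tail: NUDT21, CPSF1, CPSF2, CPSF3, CPSF6, CSTF1, CSTF2, CSTF3 and PCF11. They were followed on probe sets with deposited values. Each probe set was taken that the probe table of the array platform assigns to 1 of these genes and to no other. That gave 19 probe sets of 8 genes, out of 17313 single-gene probe sets of 10346 genes. NUDT21, CPSF2, CPSF6 and CSTF3 had 3 probe sets each, CSTF1, CSTF2 and PCF11 had 2 each, and CPSF3 had 1. The 2 probe sets of CPSF1 also name other genes, so CPSF1 was not analysed here. RNA came from U251, an established human glioblastoma cell line, and was hybridised as biotin-labelled cRNA to Affymetrix arrays. The 12 arrays formed 4 groups of 3, namely siRNA pools against ETV6 and NFKB1 together (double siRNA), ETV6 siRNA, NFKB1 siRNA, and a control siRNA without a known human target. All cells were transfected with DharmaFECT 2, with each siRNA at 50 nM. Cells given double siRNA thus received both pools at that dose, so the loss of both targets and the presence of a second pool cannot be told apart. ETV6 encodes an ETS-family transcriptional repressor, and NFKB1 encodes a precursor of an NF-kB subunit. Transfection was transient. Whether arrays of 1 group stem from different cultures is not labelled. The p-values below therefore rest on array-to-array spread that may be purely technical.

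Almost every mRNA gains its 3′ end through a large protein assembly that reads signals in the nascent transcript. Cleavage factor I, built from NUDT21 and CPSF6 or its paralogue, binds UGUA elements upstream of the cut and promotes use of distal poly(A) sites. The cleavage and polyadenylation specificity factor holds CPSF3, the endonuclease, and CPSF2, its inactive partner. The cleavage stimulation factor, made of CSTF1, CSTF2 and CSTF3, binds GU-rich sequence downstream of the cut. PCF11 belongs to cleavage factor II and binds the C-terminal domain of RNA polymerase II, linking cleavage to termination. Many genes have several poly(A) sites, so the amount of these factors can set the length of the 3′ UTR, and NUDT21 has been studied in glioblastoma for that reason.

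Promoter sequences are shown because an ETS-family factor and an NF-kB subunit were the targets, for the gene with the largest differences from control with the single siRNAs (NUDT21), for the gene with the largest rise with double siRNA (CPSF2) and for a gene that fell with double siRNA (CSTF2). They come from the RefSeq annotation of GRCh38.p14, 5′ to 3′ on the strand of the gene, and end at the base before the transcription start. Capitals mark an ETS-type core, CCGGAAG or its reverse complement CTTCCGG. The NUDT21 stretch is 191 bases on the minus strand at chr16:56451333-56451523 and stops at the neighbouring gene OGFOD1. The CPSF2 stretch is 250 bases on the plus strand at chr14:92121719-92121968, and the CSTF2 stretch is 250 bases on the plus strand at chrX:100820141-100820390.
NUDT21: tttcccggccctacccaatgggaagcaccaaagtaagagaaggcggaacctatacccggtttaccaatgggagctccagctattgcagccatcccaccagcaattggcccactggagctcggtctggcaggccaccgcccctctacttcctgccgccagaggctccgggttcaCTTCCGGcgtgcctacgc
CPSF2: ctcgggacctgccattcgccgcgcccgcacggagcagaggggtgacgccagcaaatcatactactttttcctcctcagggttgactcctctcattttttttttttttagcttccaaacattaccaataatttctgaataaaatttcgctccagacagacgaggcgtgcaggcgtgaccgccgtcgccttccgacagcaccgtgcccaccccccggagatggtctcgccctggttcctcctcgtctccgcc
CSTF2: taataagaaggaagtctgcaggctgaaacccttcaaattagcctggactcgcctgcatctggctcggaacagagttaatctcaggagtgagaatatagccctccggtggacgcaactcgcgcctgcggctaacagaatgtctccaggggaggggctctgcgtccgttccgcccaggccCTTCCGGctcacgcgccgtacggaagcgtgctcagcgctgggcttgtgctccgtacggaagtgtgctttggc
In windows from 250 bases before to 50 bases after the start, these 7 letters were found, on either strand, in 3603 of 35116 annotated promoter windows (10.3%) and in those of 5 of the 8 genes. The first base of the match lay at -18 relative to the start in NUDT21, -46 in CPSF3, -2 in CSTF1, -60 in CSTF3, and -72 and 4 in CSTF2. The windows of CPSF2, CPSF6 and PCF11 held no match. A strict kappaB site was in 67 windows (0.191%) and a looser kappaB-like one in 671 (1.91%), on either strand, and in 0 windows of these genes. A match is a description of letters and says nothing of binding in these cells.

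The targeted genes were examined in every array. The ETV6 probe set 225764_at read 7.44, 7.36 and 7.29 with double siRNA, 6.80, 6.78 and 6.60 with ETV6 siRNA, and 8.73, 8.72 and 8.64 with NFKB1 siRNA, against 9.02, 9.02 and 8.58 with control siRNA (log2 levels). That is 35.1%, 22.6% and 88.6% of control, and the double and ETV6 siRNA arrays lie below all control arrays. The second ETV6 probe set, 235056_at, read 5.94, 5.91 and 5.73 with double siRNA, 5.29, 5.15 and 5.03 with ETV6 siRNA, and 7.96, 8.03 and 7.70 with NFKB1 siRNA, against 7.52, 7.59 and 7.36 with control siRNA. No share is given for double and ETV6 siRNA, because on all 6 of these arrays it lies below the array's own 5th percentile of deposited values. With NFKB1 siRNA this probe set was called higher, at 132.3% of control (0.40, limma, adjusted p = 0.0122), while 225764_at did not pass (-0.18, adjusted p = 0.236). NFKB1 (209239_at) averaged 6.55 ± 0.05 with double siRNA, 7.81 ± 0.06 with ETV6 siRNA, 6.59 ± 0.47 with NFKB1 siRNA and 7.32 ± 0.15 with control siRNA (SD, n = 3 each). The NFKB1 siRNA arrays read 6.95, 6.75 and 6.05, against 7.22, 7.24 and 7.49 with control siRNA. The mean level left was 60.3% of control with NFKB1 siRNA and 58.8% with double siRNA. NFKB1 was called lower than control with double siRNA (limma, adjusted p = 0.00243) and with NFKB1 siRNA (adjusted p = 0.00988). It was not called with ETV6 siRNA (0.50, adjusted p = 0.144). Of the glioma markers, GFAP (13.28), VIM (14.50), CD44 (13.24) and FABP7 (12.77) were the brightest, and NES (10.96), S100B (8.68) and CHI3L1 (8.22) were also measured. Of the markers of other cell types, KRT18 (7.83), SYT1 (7.06) and MAP2 (10.10) had a single-gene probe set with deposited values. The immune markers PTPRC, CD14 and CD68 and the endothelial markers PECAM1, VWF and CDH5 had none. Neither had EPCAM, CDH1, KRT8, RBFOX3 and the glioma marker AQP4, so these genes could not be read.

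The double siRNA arrays stood apart from the others in measures that are not about these genes. Their array medians were 8.37 to 8.41, against 8.20 to 8.29 with ETV6 siRNA, 8.10 to 8.21 with NFKB1 siRNA and 8.24 to 8.30 with control siRNA. Their poly-A spike-in probe sets averaged 7.97 to 8.05, against 8.37 to 9.15 with ETV6 siRNA, 8.51 to 8.88 with NFKB1 siRNA and 8.53 to 9.35 with control siRNA. The 3′ minus 5′ difference of the ACTB probe sets was 2.05 to 2.16 with double siRNA, 1.58 to 1.68 with ETV6 siRNA, 1.52 to 1.65 with NFKB1 siRNA and 1.54 to 1.91 with control siRNA. The highest control value was that of control replicate 3. With double siRNA 76.4% of all probe sets passed the test against control, so passing it was common. The part of these measures in the results was not tested.

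Among the 19 probe sets, 14 passed the test with double siRNA against control, 9 higher and 5 lower, where 76.4% of all probe sets passed (36.5% higher, 39.9% lower). With ETV6 siRNA 2 of 19 passed, both lower, against 6.35% of all probe sets (2.29% higher, 4.06% lower). With NFKB1 siRNA 7 of 19 passed, all lower, against 34.9% of all probe sets (11.1% higher, 23.7% lower). In percent of the 19, the calls came to 73.7% with double siRNA, 10.5% with ETV6 siRNA and 36.8% with NFKB1 siRNA, each near its share of all probe sets. With double siRNA the median difference of the 19 was 0.26 log2, against -0.04 over all probe sets, with ETV6 siRNA it was -0.02, against 0.01, and with NFKB1 siRNA -0.15, against -0.01. Scaling matters for the direction, since the mean array median was 0.12 log2 higher with double siRNA and 0.09 lower with NFKB1 siRNA than with control siRNA. The low end of the deposited values lay further apart. There the mean 5th percentile was 6.17 with double siRNA, 5.92 with ETV6 siRNA, 5.66 with NFKB1 siRNA and 5.96 with control siRNA. After setting all array medians equal, the splits were 9 higher and 6 lower with double siRNA, 1 and 3 with ETV6 siRNA, and 3 and 5 with NFKB1 siRNA. After quantile normalisation they were 9 and 6, 1 and 4, and 2 and 5.

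**Figure D1:**
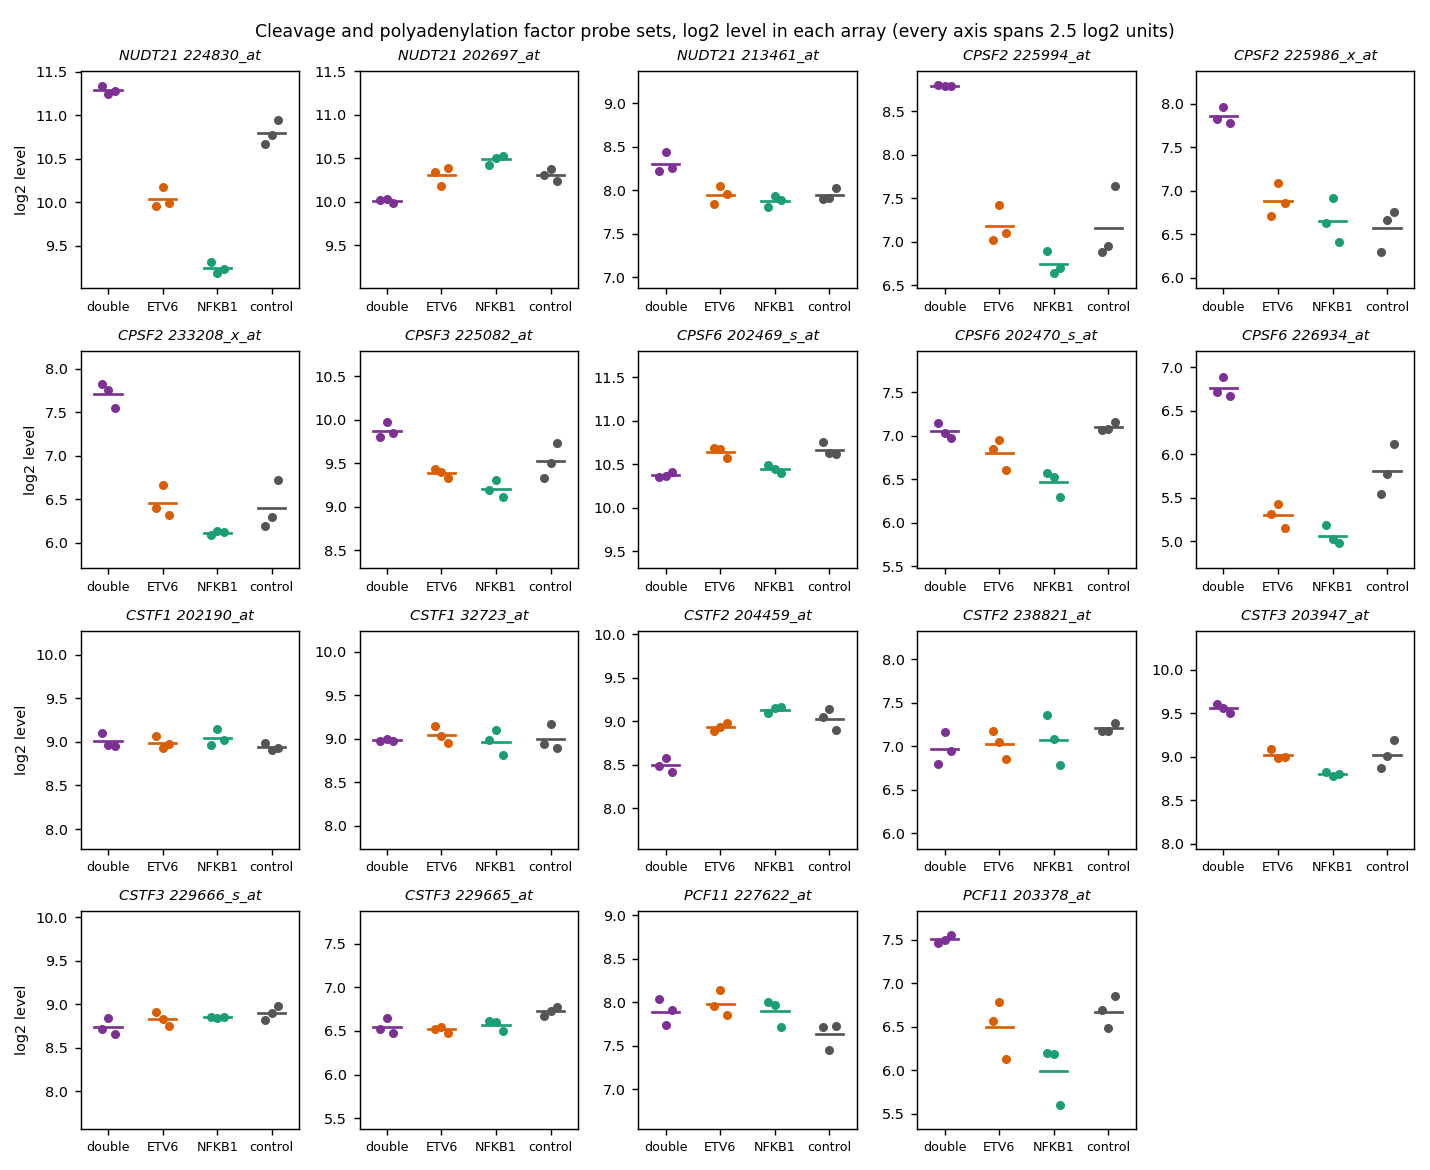
Log2 level in each array (points, 3 per group) and group mean (bars) for 19 probe sets, with the 4 siRNA groups from left to right and every vertical axis spanning 2.5 log2 units. The 3 CPSF2 probe sets stand highest with double siRNA, and NUDT21 224830_at runs from 9.18 with NFKB1 siRNA to 11.34 with double siRNA.

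NUDT21, the UGUA-binding subunit of cleavage factor I, had on probe set 224830_at the largest difference from control of the 19 with each single siRNA, and its 3 probe sets did not move together. On 224830_at the log2 levels were 11.34, 11.24 and 11.28 with double siRNA, 9.96, 10.18 and 9.99 with ETV6 siRNA, and 9.31, 9.18 and 9.24 with NFKB1 siRNA, against 10.67, 10.78 and 10.94 with control siRNA. No 2 groups overlap: double siRNA is highest, then control, ETV6 and NFKB1 siRNA. Each array reads RNA of many cells, so fewer cells with the transcript and less of it per cell cannot be told apart. The difference from control was -0.76 log2 (SE 0.08, limma, adjusted p = 0.00115) with ETV6 siRNA, leaving 59.2% of the control level. With NFKB1 siRNA it was -1.55 (SE 0.08, adjusted p = 2.48e-06), leaving 34.1%. With double siRNA it was 0.49 (adjusted p = 0.000257), or 140.4% of control. The calls on this probe set for these 3 comparisons held in all 20 alternatives of the processing, over ranges of -0.82 to -0.68, -1.62 to -1.46 and 0.37 to 0.56.

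Probe set 202697_at of NUDT21 read 10.02, 10.04 and 9.99 with double siRNA, 10.35, 10.19 and 10.39 with ETV6 siRNA, and 10.43, 10.51 and 10.53 with NFKB1 siRNA, against 10.31, 10.37 and 10.24 with control siRNA. Here double siRNA is the lowest group and NFKB1 siRNA the highest, the reverse of 224830_at. Double siRNA lowered it to 81.6% of control (-0.29, adjusted p = 0.0016), and it passed in neither single comparison, with a difference of 0.00 for ETV6 siRNA and 0.18 for NFKB1 siRNA (adjusted p = 0.0503). The NFKB1 difference passed after the shift to equal medians (0.27, adjusted p = 0.0225) and after quantile normalisation (0.22, adjusted p = 0.0201). The third NUDT21 probe set, 213461_at, read 8.22, 8.44 and 8.26 with double siRNA, 7.84, 8.05 and 7.96 with ETV6 siRNA, and 7.81, 7.93 and 7.89 with NFKB1 siRNA, against 7.90, 7.91 and 8.02 with control siRNA. Only the double siRNA arrays lie apart from control, at 128.4% (0.36, adjusted p = 0.00119), and both single comparisons were within 0.07 log2 of control.

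A test of unequal change, chosen after these values were seen, was run on the log2 difference between probe sets of 1 gene in each array, over 10674 pairs of 4482 genes. With ETV6 siRNA, 224830_at fell relative to 202697_at by 0.76 log2 (limma, adjusted p = 0.0110) and relative to 213461_at by 0.76 (adjusted p = 0.00375), in a comparison where 1.85% of pairs passed. With NFKB1 siRNA the same 2 pairs differed by -1.73 and -1.48 (adjusted p = 3.9e-05 and 2.08e-05), where 15.9% passed. With double siRNA 202697_at fell relative to both others, by 0.78 against 224830_at and 0.65 against 213461_at (adjusted p = 0.0006 and 0.000646), where 29.2% passed. Some pair of NUDT21 probe sets changed unequally in each comparison with control, and with the single siRNAs 224830_at alone passed the test of change. The transcript positions of the probes were not used here, so which part of the transcript each reads was not tested.

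CPSF6, the larger subunit that pairs with NUDT21 in cleavage factor I, was lower on all 3 of its probe sets with NFKB1 siRNA. On 202469_s_at the levels were 10.36, 10.37 and 10.41 with double siRNA, 10.69, 10.68 and 10.57 with ETV6 siRNA, and 10.49, 10.44 and 10.40 with NFKB1 siRNA, against 10.75, 10.63 and 10.62 with control siRNA. Double and NFKB1 siRNA lie below all control arrays and ETV6 siRNA overlaps them. The difference was -0.29 with double siRNA (adjusted p = 0.000987), -0.02 with ETV6 siRNA, and -0.22 with NFKB1 siRNA (adjusted p = 0.0138). The NFKB1 difference did not pass with arrays shifted to equal medians (-0.13, adjusted p = 0.103) or with only the groups compared in the fit (adjusted p = 0.0811).

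The other CPSF6 probe sets lay lower on their arrays, with 20.1% and 2.43% of all probe sets below them in mean level. On 202470_s_at the levels were 7.15, 7.03 and 6.98 with double siRNA, 6.85, 6.95 and 6.60 with ETV6 siRNA, and 6.57, 6.53 and 6.29 with NFKB1 siRNA, against 7.07, 7.08 and 7.16 with control siRNA. It fell to 64.3% of control with NFKB1 siRNA (-0.64, adjusted p = 0.000744) and passed with neither ETV6 siRNA (-0.30, adjusted p = 0.106) nor double siRNA (-0.05, adjusted p = 0.661). The ETV6 difference passed under equal medians (-0.29, adjusted p = 0.0478), quantile normalisation (-0.29, adjusted p = 0.0306) and array weights (-0.28, adjusted p = 0.0362). On 226934_at the levels were 6.72, 6.89 and 6.67 with double siRNA, 5.32, 5.42 and 5.16 with ETV6 siRNA, and 5.18, 5.03 and 4.99 with NFKB1 siRNA, against 5.54, 5.78 and 6.12 with control siRNA. The double siRNA arrays are highest and the single siRNA arrays lowest, but the single siRNA and control levels are close to or under the 5th percentile of their arrays (5.87 to 6.08 in control arrays), so no share is given. The difference was 0.95 with double siRNA (adjusted p = 7.7e-05), -0.51 with ETV6 siRNA (adjusted p = 0.0415) and -0.75 with NFKB1 siRNA (adjusted p = 0.00155). Over the alternatives the NFKB1 difference ran from -0.88 to -0.36. The ETV6 call was lost in 13 of 18 alternatives, among them without control replicate 3, the highest of its group (-0.36, adjusted p = 0.0729), and without any 1 of the ETV6 or double siRNA arrays. With double siRNA 202469_s_at and 226934_at changed unequally, by -1.23 (adjusted p = 0.000115).

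CPSF2, the inactive partner of the endonuclease, showed the largest rise among these genes with double siRNA and its 3 probe sets went the same way. On 225994_at the levels were 8.80, 8.79 and 8.79 with double siRNA, 7.02, 7.43 and 7.10 with ETV6 siRNA, and 6.89, 6.64 and 6.70 with NFKB1 siRNA, against 6.89, 6.95 and 7.64 with control siRNA. The double siRNA arrays lie more than 1 log2 unit above every other array, and the control arrays overlap those of ETV6 siRNA. The rise over control was 3.10-fold (1.63, SE 0.17, adjusted p = 1.76e-05). On 225986_x_at it was 2.43-fold (1.28, adjusted p = 2.84e-05) and on 233208_x_at 2.48-fold (1.31, adjusted p = 1.35e-05). Levels on 225986_x_at were 7.82, 7.96 and 7.78 with double siRNA and ran from 6.29 to 7.08 over the other 9 arrays. Levels on 233208_x_at were 7.83, 7.75 and 7.55 with double siRNA and ran from 6.09 to 6.72 over the others. The dimmer pair of probe sets lies below the 25th percentile of mean level. No CPSF2 probe set passed with ETV6 siRNA (0.02, 0.31 and 0.06, adjusted p from 0.288 to 0.965) or with NFKB1 siRNA (-0.42, 0.08 and -0.29, adjusted p from 0.0865 to 0.709) under limma, and 0 and 1 of the 3 had an unadjusted p under 0.05. Without control replicate 1 the NFKB1 difference passed on CPSF2 225994_at (-0.55, adjusted p = 0.0345) and on 233208_x_at (-0.39, adjusted p = 0.043).

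CPSF3, the endonuclease itself, was read by a single probe set, 225082_at. Its levels were 9.81, 9.98 and 9.84 with double siRNA, 9.44, 9.41 and 9.34 with ETV6 siRNA, and 9.19, 9.31 and 9.11 with NFKB1 siRNA, against 9.33, 9.50 and 9.74 with control siRNA. Double siRNA lies above control and NFKB1 siRNA below it, without overlap, while ETV6 siRNA overlaps with control. The difference was 0.35 with double siRNA (adjusted p = 0.00655), -0.13 with ETV6 siRNA (adjusted p = 0.525), and -0.32 with NFKB1 siRNA (adjusted p = 0.0251), which left 80.0% of control. The NFKB1 call was lost without control replicate 3 (-0.21, adjusted p = 0.075), without NFKB1 replicate 1 (-0.32, adjusted p = 0.0649) and without NFKB1 replicate 3 (-0.28, adjusted p = 0.077). It was also lost after quantile normalisation (-0.24, adjusted p = 0.0506) and with only the groups compared in the fit (adjusted p = 0.103).

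The cleavage stimulation factor divided into its subunits. CSTF1, the WD-repeat subunit, did not pass on either probe set in any of 7 comparisons with limma, and 0 of these 14 tests had an unadjusted p under 0.05. Probe set 202190_at ran from 8.90 to 9.15 and 32723_at from 8.81 to 9.16 over the 12 arrays. The 95% interval of the double minus control difference was -0.08 to 0.22 on 202190_at and -0.22 to 0.18 on 32723_at. After setting all array medians equal, CSTF1 202190_at passed with NFKB1 siRNA against control (0.20, adjusted p = 0.0482) and with double against NFKB1 siRNA (-0.25, adjusted p = 0.00691). CSTF2, the RNA-binding subunit, read 8.48, 8.58 and 8.42 on 204459_at with double siRNA, 8.88, 8.93 and 8.98 with ETV6 siRNA, and 9.09, 9.16 and 9.16 with NFKB1 siRNA, against 9.05, 9.14 and 8.90 with control siRNA. The double siRNA arrays are below all others. Double siRNA lowered it to 68.9% of control (-0.54, adjusted p = 5.22e-05), and it passed with neither ETV6 siRNA (-0.10, adjusted p = 0.502) nor NFKB1 siRNA (0.11, adjusted p = 0.255). The dimmer CSTF2 probe set, 238821_at, overlapped between double siRNA (6.80 to 7.16) and ETV6 (6.86 to 7.18) and NFKB1 siRNA (6.79 to 7.36). Its difference between double siRNA and control (7.18 to 7.26) was -0.24 and did not pass (adjusted p = 0.140), but it passed for CSTF2 under equal medians (-0.36, adjusted p = 0.0139), quantile normalisation (-0.34, adjusted p = 0.0152) and array weights (-0.24, adjusted p = 0.036).

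CSTF3, the scaffold of the stimulation factor, gave opposite calls on its probe sets with double siRNA. On 203947_at the levels were 9.61, 9.57 and 9.50 with double siRNA, 9.08, 8.99 and 9.0 with ETV6 siRNA, and 8.83, 8.78 and 8.81 with NFKB1 siRNA, against 8.87, 9.01 and 9.19 with control siRNA. Double siRNA is highest and NFKB1 siRNA lowest, without overlap with control in either case. The rise with double siRNA was 1.45-fold (0.53, adjusted p = 8.68e-05). The NFKB1 difference of -0.22 just passed (adjusted p = 0.0418) and was lost in 14 of 20 alternatives, among them without control replicate 3 (-0.14, adjusted p = 0.129), and with ETV6 siRNA the difference was 0.00. The probe sets 229666_s_at and 229665_at were lower with double siRNA, by -0.16 (adjusted p = 0.0464) and -0.18 (adjusted p = 0.0186). On 229666_s_at the double siRNA arrays at 8.66 to 8.85 overlapped the control arrays at 8.82 to 8.99, and the call was lost in 10 alternatives. On 229665_at they read 6.48 to 6.64, against 6.67 to 6.77 in control arrays, and the CSTF3 call was lost with trend and robust variances (adjusted p = 0.0857) and without double siRNA replicate 1 (-0.16, adjusted p = 0.0615) or 3 (-0.14, adjusted p = 0.0783). Relative to these probe sets, 203947_at rose by 0.69 and 0.71 (adjusted p = 4.3e-05 and 6.7e-05).

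PCF11, the cleavage factor II subunit that binds the polymerase, also differed between its probe sets. On 227622_at the levels were 8.03, 7.73 and 7.91 with double siRNA, 7.96, 8.14 and 7.86 with ETV6 siRNA, and 8.0, 7.97 and 7.72 with NFKB1 siRNA, against 7.72, 7.45 and 7.72 with control siRNA. The knock-down means of 7.89, 7.98 and 7.90 stand above the control mean of 7.63, and no difference passed (0.26, 0.35 and 0.27, adjusted p = 0.0542, 0.0974 and 0.0869). The PCF11 differences lie near the threshold, and that with double siRNA passed in 7 of 20 alternatives. Under equal medians those with ETV6 and NFKB1 siRNA passed, both at 0.36 (adjusted p = 0.0485 and 0.0143), as they did after quantile normalisation at 0.37 and 0.38 (adjusted p = 0.0418 and 0.0111). On 203378_at the levels were 7.47, 7.49 and 7.56 with double siRNA, 6.56, 6.79 and 6.13 with ETV6 siRNA, and 6.20, 6.19 and 5.60 with NFKB1 siRNA, against 6.69, 6.48 and 6.85 with control siRNA. Double siRNA is above and NFKB1 siRNA below all control arrays. The rise with double siRNA was 1.78-fold (0.83, adjusted p = 0.00169), and NFKB1 siRNA left 62.5% of control (-0.68, adjusted p = 0.0159). This probe set is dim, with 16.5% of all probe sets below it in mean level. Its NFKB1 siRNA levels lie not far above the 5th percentiles of those arrays (5.50 to 5.74). Over the alternatives the NFKB1 difference ran from -0.78 to -0.37, so its size is uncertain. Without control replicate 3 the NFKB1 difference of -0.59 did not pass (adjusted p = 0.0525). The PCF11 pair changed unequally with NFKB1 siRNA (0.95, adjusted p = 0.000605) and with double siRNA (-0.57, adjusted p = 0.00547). With ETV6 siRNA the inequality of 0.53 did not pass (adjusted p = 0.0601).

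**Figure D2:**
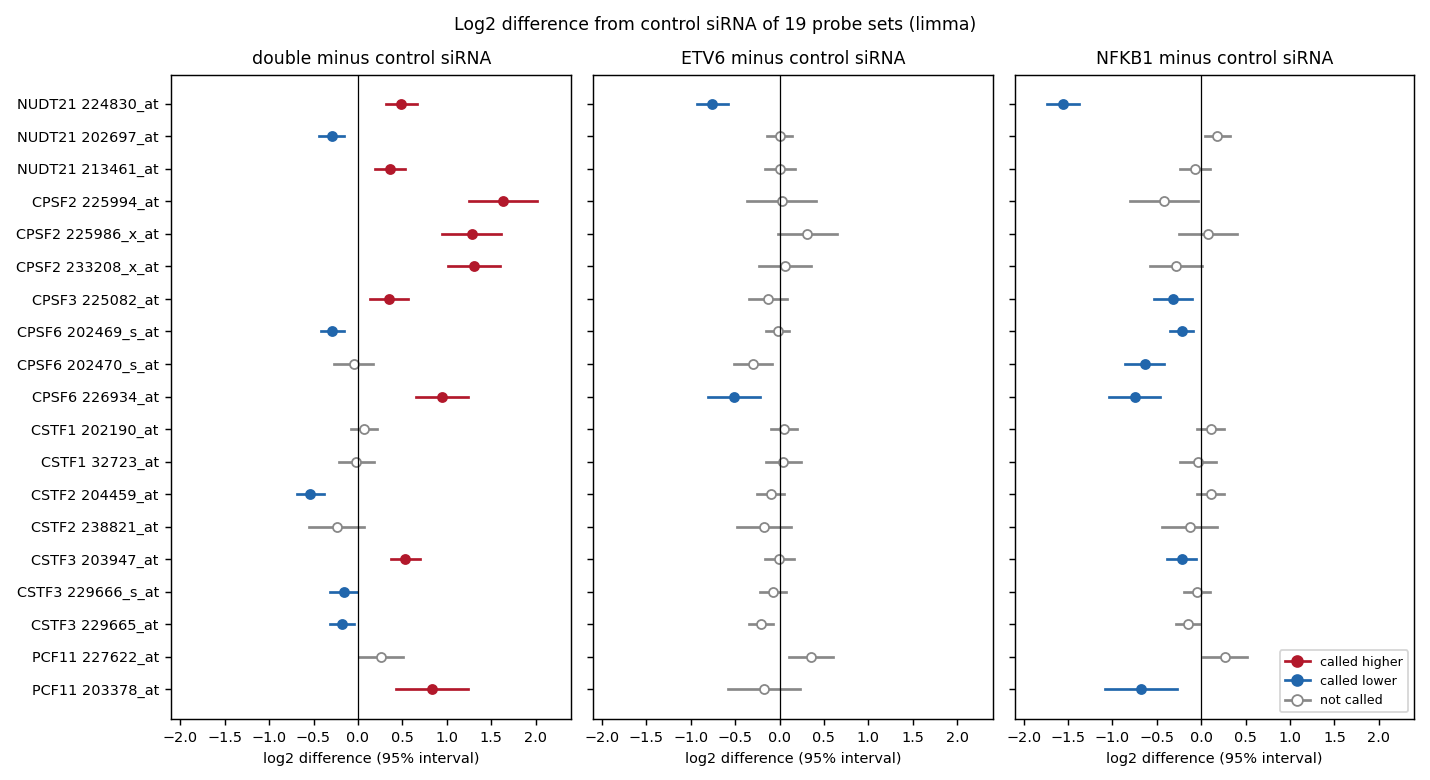
Log2 difference from control siRNA for each of 19 probe sets (points, with 95% intervals), in panels for double, ETV6 and NFKB1 siRNA; filled points passed the test. With double siRNA the CPSF2 probe sets lie at 1.28 to 1.63, and with NFKB1 siRNA NUDT21 224830_at lies at -1.55.

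Over these genes, probe sets of 1 gene were called in opposite directions with double siRNA for NUDT21, CPSF6 and CSTF3, which is 3 of the 7 genes with several probe sets. Over all single-gene probe sets with deposited values, 191 of 4482 such genes (4.26%) were called both ways in that comparison. Of the 15 pairs of probe sets within a gene, 8 changed unequally with double siRNA, 2 with ETV6 siRNA and 5 with NFKB1 siRNA, where 29.2%, 1.85% and 15.9% of all pairs passed. Control replicate 3 was the highest control array for 9 of the 9 probe sets called higher with double siRNA and the lowest for 3 of the 5 called lower. Over all probe sets called in that comparison the shares were 82.1% and 74.3%. Without that array 14 of the 19 probe sets passed, 10 higher and 4 lower. Of the 14 calls 13 were kept, that of CSTF3 229666_s_at was lost, and PCF11 227622_at passed in addition.

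**Figure D3:**
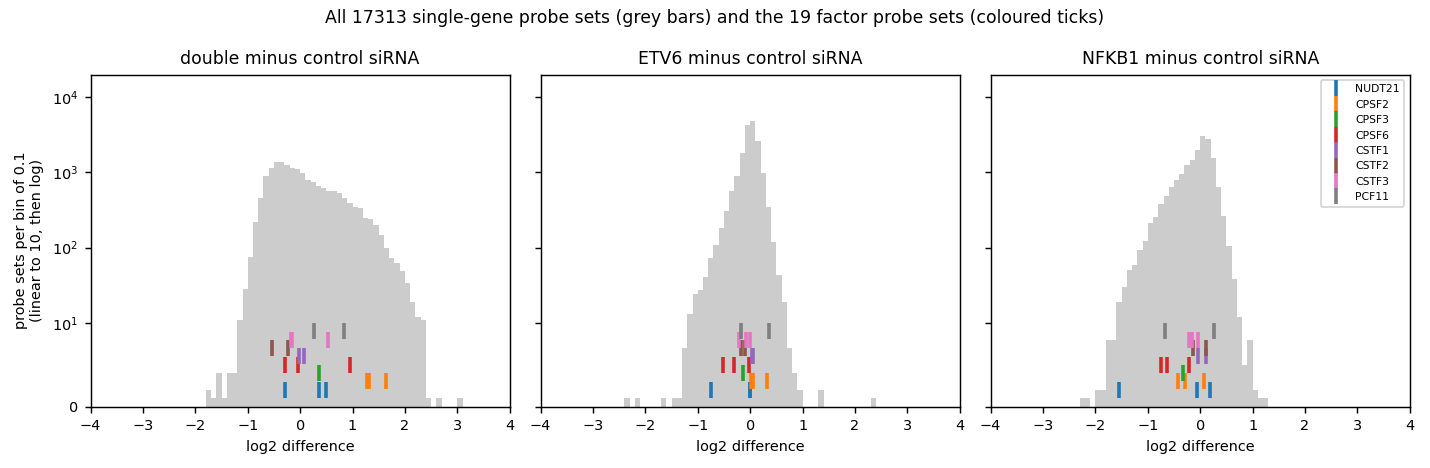
Distribution of log2 differences from control siRNA over 17313 probe sets (grey bars, count per bin of 0.1, linear to 10 and logarithmic above) with the 19 factor probe sets as coloured ticks, 1 colour per gene, whose height only separates the genes. The factor probe sets lie inside the range of the whole table in each panel, with a median of 0.26 for double siRNA, -0.02 for ETV6 siRNA and -0.15 for NFKB1 siRNA.

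The comparison of double siRNA with each single siRNA sets arrays given both pools against arrays given a single pool. ETV6 itself was higher with double than with ETV6 siRNA (225764_at, 0.64 log2, limma, adjusted p = 0.000289). Its dimmer probe set 235056_at was also called higher. These arrays thus differ in ETV6 level besides the NFKB1 pool. NFKB1 was not called between double and NFKB1 siRNA (-0.04, adjusted p = 0.852). Against ETV6 siRNA 13 of 19 probe sets passed, 10 higher and 3 lower (82.7% of all probe sets, 39.4% higher and 43.2% lower). Against NFKB1 siRNA 12 passed, 10 higher and 2 lower (87.3% of all, 42.7% higher and 44.7% lower). After the shift to equal medians the split against NFKB1 siRNA became 10 higher and 8 lower, and after quantile normalisation 10 and 7. NUDT21 224830_at was 2.37-fold higher with double siRNA than with ETV6 siRNA and 4.12-fold higher than with NFKB1 siRNA. CPSF2 225994_at was 3.05-fold and 4.14-fold higher, PCF11 203378_at 2.01-fold and 2.85-fold higher, and CSTF3 203947_at 1.45-fold and 1.68-fold higher. CSTF2 204459_at was lower than in both, at -0.44 and -0.64 log2.

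Between the single siRNAs, 4 of 19 probe sets passed (26.8% of all, 18.9% higher and 7.95% lower with ETV6 siRNA), 3 higher and 1 lower with ETV6 than with NFKB1 siRNA. Under equal medians the split was 2 and 2, and after quantile normalisation 3 and 2. NUDT21 224830_at was higher with ETV6 siRNA by 0.80 log2 (limma, adjusted p = 7.58e-05). CPSF6 was higher by 0.20 on 202469_s_at (adjusted p = 0.0264) and 0.34 on 202470_s_at (adjusted p = 0.0279), and CSTF2 204459_at was lower by -0.20 (adjusted p = 0.0499). The count of 4 moved between 1 and 8 when single arrays were left out. It was 8 without control replicate 3, 1 without ETV6 replicate 1, ETV6 replicate 2 or NFKB1 replicate 3, and 2 without NFKB1 replicate 2.

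The interaction asks whether the double siRNA difference equals the sum of the single ones on the log2 scale. It passed for 12 of 19 probe sets, 10 above and 2 below the sum, where 83.3% of all probe sets passed (40.7% above, 42.6% below), so the members' 63.2% is under the share of the table. Its median over the 19 was 0.43 log2, against -0.05 over all probe sets. With arrays shifted to equal medians it passed for 9 above and 6 below, and after quantile normalisation for 9 and 5. NUDT21 224830_at stood farthest from the sum: the single differences add to a fall and the double siRNA level was above control, a gap of 2.80 log2 (limma, adjusted p = 5.45e-07). CPSF2 225994_at stood above the sum by 2.03 (adjusted p = 3.79e-05). For CPSF6 226934_at the fitted gap was 2.21 (adjusted p = 6.84e-06), but its single siRNA and control levels lie near or under the 5th percentile of their arrays, so its size is uncertain. CSTF2 204459_at (-0.54, adjusted p = 0.000411) and NUDT21 202697_at (-0.47, adjusted p = 0.00061) lay below the sum.

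**Figure D4:**
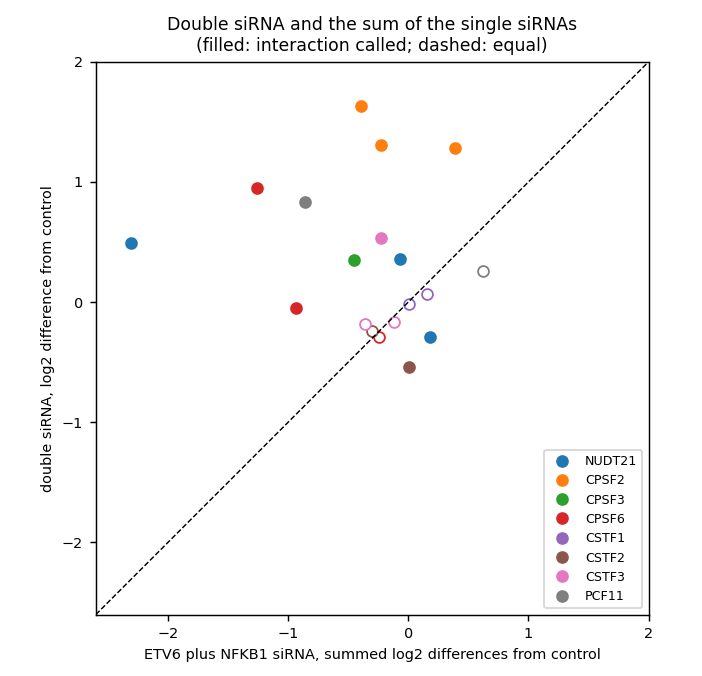
Log2 difference from control with double siRNA (vertical axis) against the summed differences of the ETV6 and NFKB1 siRNAs (horizontal axis) for 19 probe sets, coloured by gene; filled points passed the interaction test and the dashed line marks equality. Of the 12 filled points 10 lie above the line, NUDT21 224830_at farthest at 2.80.

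The rest of the machinery was described over gene lists with the brightest probe set of each gene. In that form 6 of the 8 genes above passed with double siRNA, 4 higher and 2 lower (77.5% of 10346 genes, 32.3% higher, 45.2% lower), 1 lower with ETV6 siRNA (6.86%, 2.59% higher, 4.27% lower) and 4 lower with NFKB1 siRNA (34.5%, 12.5% higher, 22.0% lower). Of 17 other cleavage and polyadenylation factors with a probe set, 7 rose and 8 fell with double siRNA, 1 fell with ETV6 siRNA, and 3 rose and 6 fell with NFKB1 siRNA. Their median with double siRNA was -0.09, against -0.11 over all genes. The poly(A) polymerase genes PAPOLA and PAPOLG were higher with double siRNA by 0.94 and 1.19 log2, and BARD1, a binding partner of CSTF1, by 0.92. PPP1CA, a phosphatase catalytic subunit found with the complex, was lower by -0.61. PPP1CB and PPP1CC of the same list were called higher with double siRNA, at 0.77 and 0.14. With NFKB1 siRNA RBBP6, a cleavage activator, was at -0.65 on its brightest probe set. Its other probe sets were at -0.39 and -0.36, both called lower, and at 0.20 and 0.32, neither called (limma, adjusted p = 0.491 and 0.0816). The RBBP6 probe sets not called lie below the 25th percentile of mean level. In the same comparison FIP1L1, a CPSF subunit that binds the poly(A) polymerase, was at -0.41, BARD1 at -0.54 and PPP1CC at -0.39. PPP1CC was the 1 gene of this list that passed with ETV6 siRNA (-0.57, adjusted p = 0.00053).

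Of 17 poly(A)-binding and deadenylation genes with a probe set, 13 rose and 3 fell with double siRNA, where 77.5% of all genes passed (32.3% higher, 45.2% lower). Their median was 0.34, against -0.11 over all genes. The deadenylase-complex genes CNOT8 (0.82), CNOT6L (1.06), CNOT7 (0.62) and CNOT6 (0.78) had the smallest adjusted p. With ETV6 siRNA 0 of the 17 passed under limma, 3 with an unadjusted p under 0.05, and 3 rose and 3 fell with NFKB1 siRNA. The all-gene shares were 6.86% with ETV6 siRNA and 34.5% with NFKB1 siRNA (12.5% higher, 22.0% lower), against which the counts of the lists that follow are also to be read. Of 14 Integrator genes, whose complex cleaves precursors of small nuclear RNA, 6 rose and 6 fell with double siRNA, 2 fell with ETV6 siRNA, and 2 rose and 3 fell with NFKB1 siRNA. The median with double siRNA was 0.05. INTS10 and INTS13 were each higher with double siRNA by 0.72, INTS1 was at -0.64 and INTS11, the catalytic subunit, at -0.56. INTS2 was at -0.88 with ETV6 siRNA and -1.31 with NFKB1 siRNA, and INTS9 was at 0.28 with NFKB1 siRNA. Of 11 termination and polymerase-domain factors, 3 rose and 6 fell with double siRNA, with a median of -0.35, and 2 fell with NFKB1 siRNA. With ETV6 siRNA 0 of the 11 passed under limma, and 0 had an unadjusted p under 0.05. XRN2, the torpedo exonuclease, was at 0.80 and RPRD1A at 1.58 with double siRNA, while CCNK, the cyclin of CDK12, was at -0.63 and SCAF4 at -0.47. Of 6 genes of histone pre-mRNA processing, 2 rose and 3 fell with double siRNA, 1 fell with ETV6 siRNA and 3 fell with NFKB1 siRNA, with a median of -0.18 with double siRNA. LSM10 was at -0.74, LSM11 at -0.45 and CASP8AP2 at 0.58 with double siRNA. LSM11, a subunit of the U7 particle, was at -1.47 and NPAT at -1.10 with NFKB1 siRNA.

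**Figure D5:**
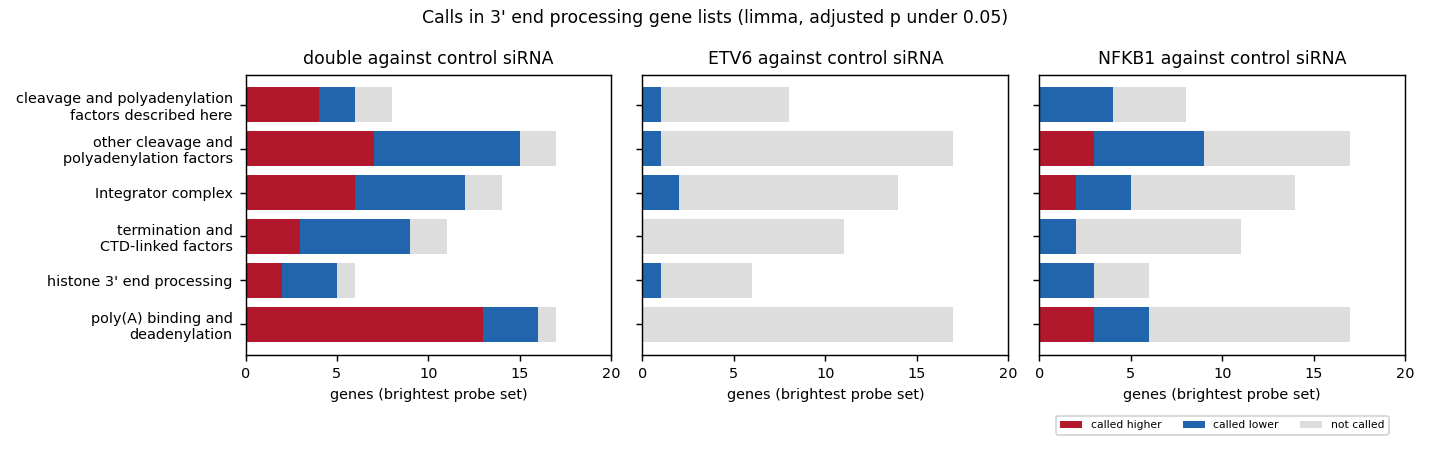
Number of genes called higher (red), called lower (blue) and not called (grey) in 6 lists of RNA 3′ end processing genes, with the brightest probe set per gene, in panels for double, ETV6 and NFKB1 siRNA against control siRNA. With double siRNA 13 of 17 poly(A)-binding and deadenylation genes were called higher, and 4 of the 8 factors described here.

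CCND1, DICER1 and TIMP2 have been reported to change 3′ UTR length with the amount of NUDT21. CCND1 (208712_at) was at -1.22 log2 with double siRNA, -0.61 with ETV6 siRNA and -0.32 with NFKB1 siRNA (limma, adjusted p = 8.24e-06, 0.00998 and 0.044). DICER1 was lower with NFKB1 siRNA on each of its 3 probe sets, at -1.67, -1.78 and -1.98, and passed in neither other comparison. In the same order its differences were -0.47, -0.51 and -0.56 with ETV6 siRNA and -0.08, -0.08 and -0.28 with double siRNA. No pair of DICER1 or CCND1 probe sets changed unequally against control, while TIMP2 203167_at fell relative to its other probe sets with double siRNA by 0.42 and 0.40. Where those probe sets lie in the transcripts was not looked up, and UTR length was not measured.

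The genes whose pattern over the 12 arrays was most like that of NUDT21 224830_at were MYBL1, DENND5B, ATAD2, BRIP1 and ADAM10, among 8552 genes above the 25th percentile of level. Their root mean square difference from it, after centring each gene, was 0.163 to 0.177 log2, against a median of 0.843 over all genes and a spread of NUDT21 itself of 0.778. ATAD2, for example, differed from control by 0.28 with double siRNA, -0.97 with ETV6 siRNA and -1.41 with NFKB1 siRNA. Those nearest to PCF11 227622_at were PTPRN2, NREP, KRT15, TMEM140 and TPD52L1, at 0.108 to 0.124, where PCF11 itself varied by only 0.181 and the median over all genes was 0.315.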

How the data were processed

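Expression was measured in 12 arrays, 3 for each siRNA group. The values deposited by the authors are log2 probe set levels; background correction, summarisation and normalisation are not given in the sources used here, nor are detection calls. Of 19520 probe sets with deposited values, 17313 carried a single gene symbol, 857 carried several, 1293 had none and 57 were array controls. Any probe set without deposited values was not considered, and percentiles and shares refer to the deposited ones. Symbols came from the platform's probe table, and Entrez identifiers of 17307 matched RefSeq. No array pair was identical (0 pairs).

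The deposited log2 values were used unchanged. The linear model held 4 group means over the 12 arrays, fitted by lmFit with eBayes moderation (limma 3.58.1, R 4.3.3). Residual degrees of freedom were 8 and prior ones 3.03, and 7 comparisons were drawn from it. Tests were two-sided and adjusted by Benjamini and Hochberg over all 17313 probe sets without a filter on level. An adjusted p under 0.05 was called. A probe set was called low under the 25th percentile of mean level (7.09 log2); 12 of the 19 lay above it. Permuting 3 against 3 arrays exactly has a smallest p of 0.1 and was not used. The fit was tested on simulated data.

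All single-gene probe sets of the 9 genes and both targets were named, up to 4 genes per list and comparison with control by smallest adjusted p, and the 5 nearest genes for NUDT21 and PCF11. Genes outside the rule were named after their values were seen. Members and lists were chosen with earlier results of these data known. Alternatives were another scaling, a filter, the brightest probe set, trend and robust variances, array weights, a replicate block, only the groups compared, and each array left out. The number of arrays limits the precision.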

Additional observations from a re-analysis of the deposited data

Results flagged for a closer look

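For 12 of the 19 probe sets the NFKB1 siRNA effect differed between cells with and without ETV6 siRNA, by the interaction test of limma. The effects below are log2 differences, double minus ETV6 siRNA where ETV6 siRNA was present and NFKB1 minus control siRNA where it was not. ETV6 was higher with double than with ETV6 siRNA, so double minus ETV6 siRNA does not hold the ETV6 level constant. Since 83.3% of all probe sets passed the same test, none of these is set apart by passing it.

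For NUDT21 the effects on 224830_at were 1.25 and -1.55, a difference of 2.80 (adjusted p = 5.45e-07). On 202697_at they were -0.29 and 0.18, a difference of -0.47, and on 213461_at 0.36 and -0.07, a difference of 0.43. The difference on NUDT21 213461_at did not pass after the shift to equal medians (0.20, adjusted p = 0.098) or after quantile normalisation (0.20, adjusted p = 0.102). For CPSF2 the difference was 2.03 on 225994_at, 0.89 on 225986_x_at and 1.53 on 233208_x_at, with effects of 1.61, 0.97 and 1.25 in the presence of ETV6 siRNA and -0.42, 0.08 and -0.29 without it. CPSF3 225082_at had effects of 0.48 and -0.32, a difference of 0.80.

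For CPSF6 the difference was 0.89 on 202470_s_at (0.25 and -0.64) and 2.21 on 226934_at (1.46 and -0.75). The second lay at a level close to the bottom of the deposited values. CSTF2 204459_at had effects of -0.44 and 0.11, a difference of -0.54. CSTF3 203947_at had effects of 0.54 and -0.22, a difference of 0.76. PCF11 203378_at had effects of 1.01 and -0.68, a difference of 1.69, also on a probe set low in level. The higher ACTB 3′ minus 5′ difference and lower poly-A spike-in level of the double siRNA arrays go along with the group, and their part in these differences was not tested.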

How the results depend on the processing

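Of 133 differences of single probe sets, 64 were called and 52 of these kept direction and call in every one of 20 alternatives that could be run. The 1 reversal was CSTF1 32723_at between double and NFKB1 siRNA, -0.19 (adjusted p = 0.0477) after the shift to equal medians. Calls for ETV6 siRNA against control were fewest and least stable: the count of 2 became 4 with equal medians, 5 with quantile normalisation, 6 with array weights, and 1 with the low-level filter, the brightest probe set, trend and robust variances, the replicate block or only the groups compared. For NFKB1 siRNA against control the 7 became 4 with the brightest probe set or only the groups compared. For double siRNA the brightest probe set gave 7 against control, 6 against ETV6 siRNA and 5 against NFKB1 siRNA, and 6 for the interaction, and the filter gave 8 against ETV6 siRNA and 7 against NFKB1 siRNA; both test only 8 or 12 of the 19 by construction. Array weights gave 8 between ETV6 and NFKB1 siRNA. Leaving out single arrays gave 1 to 2 for ETV6 and 4 to 9 for NFKB1 siRNA against control, 12 to 15 for double siRNA against control, 12 to 13 against each single siRNA, 1 to 8 between the single siRNAs and 12 to 13 for the interaction. The lowest count for NFKB1 siRNA came without control replicate 3. Pairs of probe sets changing unequally between ETV6 and NFKB1 siRNA were 2, and 4 with quantile normalisation or without control replicate 3. Causes of these shifts other than the number tested were not tested.

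With the replicate block the counts against control were 13 for double, 1 for ETV6 and 6 for NFKB1 siRNA. Arrays with the same number correlated between -0.44 and 0.45 in their deviations, over 0.1 in 5 of 18 pairs, so the numbers were not taken to pair the samples. Levels under the 25th percentile hold 7 of the 19 probe sets, and no detection call says which of them exceed background.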
